A study of Mus musculus with 6 samples.

Results

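Cirbp and Rbm3, the cold-inducible RNA-binding protein genes of the mouse, were followed across the ageing brain. They were chosen by name, 2 of the 32285 genes counted, and both were detected in all 6 sections and passed the filter on low counts. Their RNA was read with Visium, a glass slide whose barcoded spots capture polyadenylated RNA from the tissue lying above them, so that each unique molecular identifier (UMI) counts 1 captured RNA at a known spot. The sections were 16 µm thick coronal slices of frozen brain from male C57BL/6J mice. Young mice were 6 months old, middle-aged mice 18 months and old mice 21 months, with 2 males and 2 sections at each age. Both young sections, middle 1 and old 1 lay on the first slide, while middle 2 and old 2 lay on the second. No young section lay on the second slide. Sections are called here by age and replicate number (young 1, young 2 and so on).

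CIRBP and RBM3 are small proteins that begin with an RNA recognition motif and end in a glycine-rich tail. Mild cooling raises both RNAs in mammalian cells, and both proteins bind many mRNAs and alter their stability, their polyadenylation or their translation. In the brain RBM3 is known for the upkeep of synapses after cooling, and CIRBP for shaping the rhythm of clock gene transcripts such as Clock with body temperature.

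Cirbp (ENSMUSG00000045193) lies on chr10:80165985-80172786 on the plus strand and Rbm3 (ENSMUSG00000031167) on chrX:8138975-8145880 on the minus strand, in GENCODE M21 on GRCm38. The first 240 coding bases of each, read from GENCODE's transcripts, are shown because they encode the shared RNA recognition motif. Capitals mark the bases that differ between them.
Cirbp: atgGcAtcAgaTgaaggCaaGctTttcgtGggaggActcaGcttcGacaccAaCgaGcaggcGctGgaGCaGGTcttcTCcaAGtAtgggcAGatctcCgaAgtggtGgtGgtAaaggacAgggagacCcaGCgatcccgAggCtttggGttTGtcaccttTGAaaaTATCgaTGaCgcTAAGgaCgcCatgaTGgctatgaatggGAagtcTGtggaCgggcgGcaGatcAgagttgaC
Rbm3: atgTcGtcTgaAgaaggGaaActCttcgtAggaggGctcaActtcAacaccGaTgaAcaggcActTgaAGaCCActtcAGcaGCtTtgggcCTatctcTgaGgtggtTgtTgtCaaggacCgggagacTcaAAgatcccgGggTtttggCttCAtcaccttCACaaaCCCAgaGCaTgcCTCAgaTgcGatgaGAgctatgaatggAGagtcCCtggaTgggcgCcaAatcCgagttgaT
Over these 240 bases 171 bases were identical, and 61 of 80 encoded residues were the same. The longest run of identical bases between the full transcripts was 11, so the genes share no long stretch that could mix their reads. Rbm3 has a processed pseudogene, Rbm3-ps, with an identical run of 197 bases, which was not among the genes counted. The antisense gene Rbm3os overlaps Rbm3 by 452 bases and held 15 to 27 UMIs per section, against 7531 to 11408 for Rbm3.

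RefSeq's promoter table (GRCm38.p6) held 1 of the 2 genes, Cirbp. The 250 bases before a Cirbp start site, chr10:80167589-80167838 on the plus strand, are shown because they carry the letters of the mild cold response element, in capitals.
Cirbp promoter: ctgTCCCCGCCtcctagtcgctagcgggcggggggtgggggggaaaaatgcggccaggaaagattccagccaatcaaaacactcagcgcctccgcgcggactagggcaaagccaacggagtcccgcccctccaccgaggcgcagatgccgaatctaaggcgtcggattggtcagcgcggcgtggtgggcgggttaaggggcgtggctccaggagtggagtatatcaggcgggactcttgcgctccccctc
The element is a short motif, TCCCCGCC, that the transcription factor Sp1 is known to bind in the Cirbp promoter after mild cooling. It begins at base -247, counted from the start site. On either strand, the same letters occur in 5.38% of 32851 RefSeq promoters of 300 bases. The Sp1 box GGGCGG was found 3 times in this Cirbp window, none overlapping the element, and occurs in 35.7% of the promoters. The E-box CACGTG was not found in the 2 Cirbp windows of the table, nor was the heat shock element GAANNTTC or the cyclic AMP response element TGACGTCA. These are matches of letters and no measure of binding.

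Section totals ran from 60938938 to 77557934 UMIs, and the median spot held 20370 to 30093 UMIs, lowest in the 2 old sections. Mitochondrially encoded genes took 13.3% to 16.5% of UMIs. Clustering of spots without Cirbp and Rbm3 gave 20 clusters, of which 15 carried the markers of 9 regions, and 5 (3132 spots) stayed unnamed. Young 1 stood apart in holding 46 hippocampal spots, against 166 to 274 in the other sections. A sum over spots cannot tell more RNA per cell from more cells of a type. Replicates are read as separate mice, since the labels give 2 males per age, and the tests share 1 estimate of the spread across the 3 ages.

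Both cold-inducible RNAs were higher in middle-aged and old sections than in young ones, with mean levels 1.24 to 1.38 times the young mean. None of the 6 pairwise changes in whole sections passed the main test, while the slope of Cirbp over age did. Levels are given as CPM, UMIs of a gene scaled to a total of 1000000 UMIs. Cirbp was at 61.2 CPM in young 1, 66.0 in young 2, 81.0 in middle 1, 76.4 in middle 2, 89.6 in old 1 and 81.6 in old 2. By CPM the 3 ages did not overlap, with the young sections lowest and the old ones highest. Middle 1 and old 2 lay close together. The main fit scales them by TMM factors of 0.983 and 1.016, and division by these would place middle 1 above old 2. The group means were 63.6 ± 3.42 (SD, n = 2) in young, 78.7 ± 3.29 in middle and 85.6 ± 5.66 in old, a ratio of 1.35 between old and young. Rbm3 was at 97.9 CPM in young 1, 101.9 in young 2, 149.6 in middle 1, 126.9 in middle 2, 143.3 in old 1 and 125.8 in old 2. Its young sections were below all others, and its middle and old sections overlapped. Its means were 99.9 ± 2.79 in young, 138.3 ± 16.0 in middle and 134.5 ± 12.4 in old. For both ages, the section on the second slide was the lower of its pair for both genes. Complete separation of this kind is common here: both old sections lay above both young ones for 32.1% of the 17673 genes tested, and both middle sections for 22.2%. The share of genes in which all 3 ages separate was not computed, for whole sections or for a region.

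**Figure D1:**
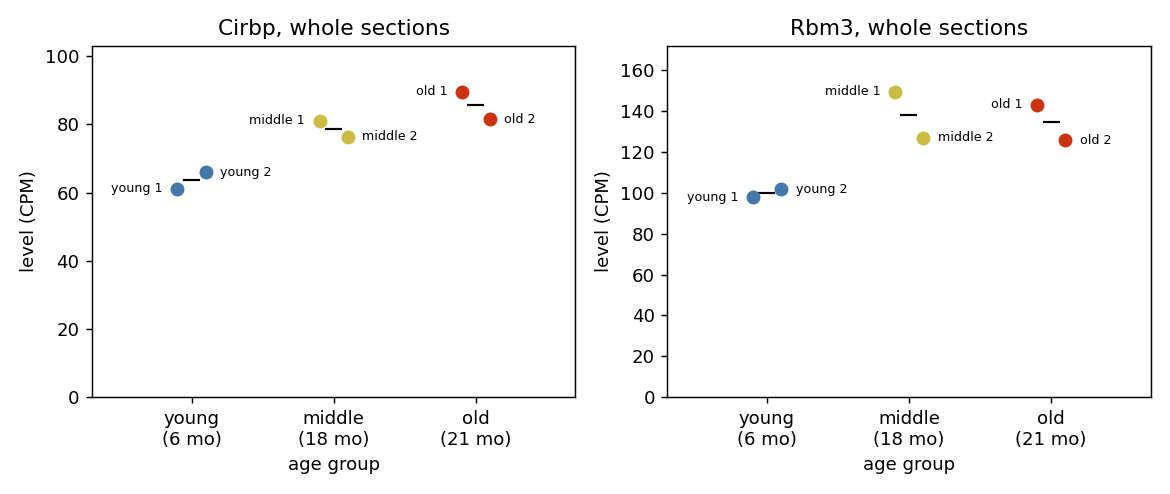
Cirbp (left) and Rbm3 (right) in CPM of the whole section, by age group. Points are single sections and short lines are the means of 2 sections. All middle and old sections lie above both young sections, and for Rbm3 the middle and old sections overlap.

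On the log2 scale, Cirbp differed between old and young by 0.38 (SE 0.068, edgeR quasi-likelihood test with Benjamini-Hochberg adjusted p = 0.120). The same contrast for Rbm3 gave 0.38 (SE 0.099, edgeR adjusted p = 0.244). Of all genes tested in this contrast, 0.164% were called at an adjusted p under 0.05, and by unadjusted p Cirbp ranked 83rd and Rbm3 439th of 17673. Between middle and young, Cirbp differed by 0.29 (SE 0.068, edgeR adjusted p = 0.390) and Rbm3 by 0.45 (SE 0.099, edgeR adjusted p = 0.363), where 0.0679% of genes were called. These 2 contrasts share the young sections. DESeq2 on the same counts called Cirbp (adjusted p = 0.00147) and Rbm3 (adjusted p = 0.0380) between old and young, and Rbm3 (adjusted p = 0.00925) between middle and young. Of the 17673 genes, DESeq2 called 113 higher and 81 lower in old, and 36 higher and 34 lower in middle, more than edgeR did. With slide as a block, the old minus young differences were 0.44 for Cirbp and 0.49 for Rbm3. The middle minus young differences in that fit were 0.35 and 0.56.

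From 18 to 21 months neither RNA moved beyond the spread between sections. The old minus middle difference was 0.09 for Cirbp (SE 0.068) and -0.07 for Rbm3 (SE 0.099), both with an edgeR adjusted p of 1.00, in a contrast that called 0% of genes. Over the 3 ages taken in order, Cirbp rose by 0.0248 log2 units per month (SE 0.00399, edgeR adjusted p = 0.0376), among the 0.724% of genes called. This call held when young 2 was left out and was lost when any of the other 5 sections was (adjusted p 0.0695 to 0.106). The slope of Rbm3 was 0.0288 per month (SE 0.00717, edgeR adjusted p = 0.138).

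The 2 RNAs were laid out differently over the brain. Among the named regions, Cirbp was highest in the hypothalamus, the region of neuropeptides and body temperature control, with 96.2 to 139.9 CPM and a median of 114.0 over the 6 sections. It was lowest in the hippocampal formation, from 39.7 to 70.1 with a median of 58.8. The difference between these ends was 0.98 ± 0.17 (SD, n = 6) on the log2 scale and had the same sign in 6 of 6 sections. These ends were picked from the same values and are given with no test. Between them, mean levels of Cirbp were 80.9 in thalamus, 76.7 in white matter, 69.7 in isocortex, 67.7 in meninges, 66.7 in striatum, 63.9 in amygdala and olfactory cortex and 63.0 in choroid plexus and ventricle. Among the 8 pairs of neighbours in this order, hypothalamus exceeded thalamus in 6 of 6 sections, by 0.50 ± 0.061 (exact sign-flip permutation test, two-sided p = 0.03125, the smallest that 6 sections allow, adjusted 0.25). The order was taken from the same values, so the test cannot decide it. The other 7 pairs differed by 0.02 to 0.12 on average, with that sign in 3 or 4 of 6 sections each, so their order is not set by these data. Unnamed spots were not ranked. In the unnamed cluster led by Gng8 and Gm5741, Cirbp was 60.1 and 85.9 in young, 122.6 and 111.8 in middle and 129.3 and 123.6 in old. The hypothalamus was lower than this cluster in both middle sections (118.2 and 109.7) and higher in the others.

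Rbm3 was instead highest, among the named regions, in the isocortex, with 117.2 to 174.5 CPM and a median of 152.1. By mean CPM it was lowest in striatum, with 66.3 to 105.8 and a median of 92.2, and in white matter, with 62.1 to 109.2 and a median of 99.0. White matter and striatum were tied on the log2 scale, with white matter the higher in 3 of 6 sections (white matter minus striatum -0.0038 ± 0.15). Isocortex was above striatum by 0.72 ± 0.12, in 6 of 6 sections. Its mean levels were 147.5 in isocortex, 127.6 in thalamus, 127.5 in hippocampal formation, 111.6 in meninges, 106.8 in amygdala and olfactory cortex, 96.5 in choroid plexus and ventricle, 95.6 in hypothalamus, 90.0 in white matter and 89.3 in striatum. Of 8 neighbouring pairs, isocortex over thalamus (0.21), hippocampal formation over meninges (0.19) and hypothalamus over white matter (0.09) had the same sign in 6 of 6 sections (exact p = 0.03125, adjusted 0.0833). No neighbour difference of either gene passed the adjusted threshold. To pass at the smallest p that 6 sections allow, most of the 8 pairs would have to reach it. The order also came from the same values, so this test decides nothing. By mean CPM, the hippocampal formation ranked 9 of 9 for Cirbp and 3 of 9 for Rbm3, and the hypothalamus 1 of 9 for Cirbp and 7 of 9 for Rbm3. In the unnamed cluster led by Kcnab3 and Plcxd2, Rbm3 was 127.9 and 142.7 in young, 193.7 and 178.4 in middle and 167.8 and 167.9 in old. This was above isocortex in every section but old 1.

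**Figure D2:**
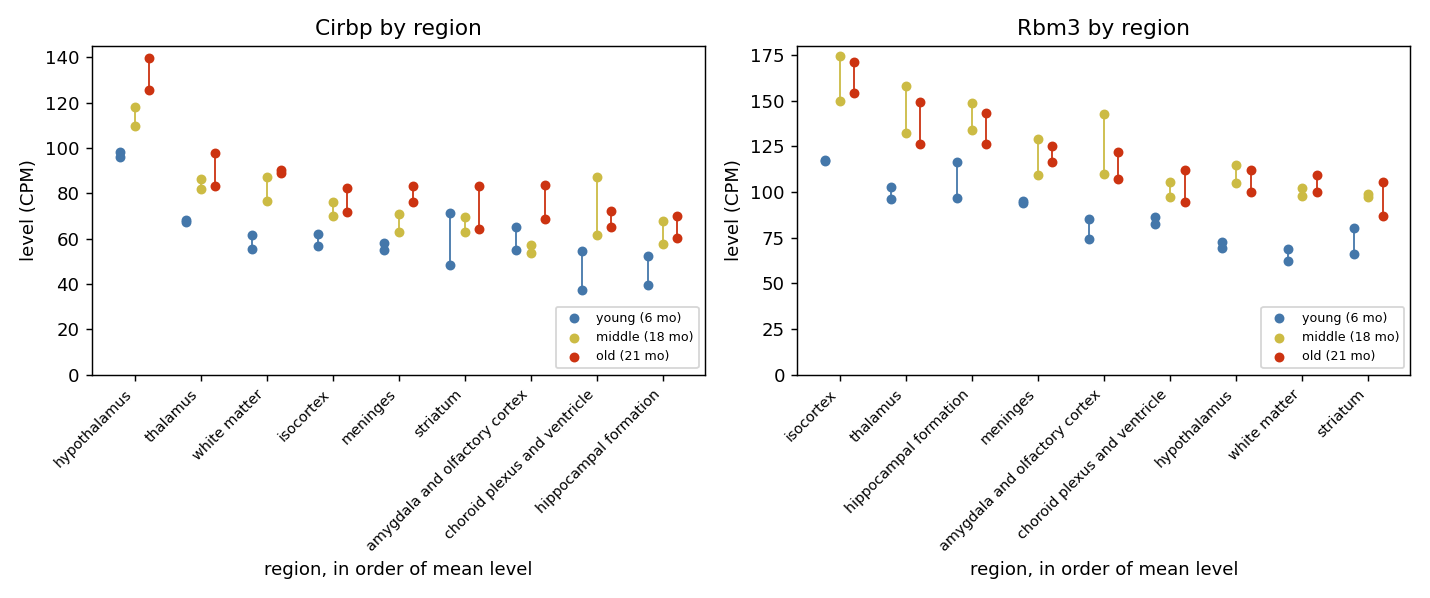
Cirbp (left) and Rbm3 (right) in CPM of each region, regions in order of the mean over 6 sections. Points are single sections, coloured by age, and lines join the 2 sections of an age; the hypothalamus leads for Cirbp and the isocortex for Rbm3, and young sections are lowest in most regions.

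The ratio of the 2 genes' UMIs within a section is free of library size. Whole sections held 1.54 to 1.85 Rbm3 UMIs per Cirbp UMI, with log2 ratios of Cirbp to Rbm3 of -0.68 in young 1, -0.63 in young 2, -0.88 in middle 1, -0.73 in middle 2, -0.68 in old 1 and -0.62 in old 2. The middle sections were the lowest, and young and old overlapped. An exact permutation test over assignments of sections to ages cannot give a p under 0.0667 here, so these ratios are given with no test between ages. In the hypothalamus Cirbp exceeded Rbm3 in 6 of 6 sections, with log2 ratios of 0.44 and 0.48 in young, 0.04 and 0.07 in middle and 0.32 and 0.33 in old. In the other 8 named regions Rbm3 exceeded Cirbp in every section, most in the hippocampal formation and isocortex, at a mean of 2.24 and 2.11 Rbm3 UMIs per Cirbp UMI. In the unnamed cluster led by Gng8 and Gm5741, Cirbp was above Rbm3 in middle 2 (111.8 against 106.3 CPM) and old 2 (123.6 against 116.7). Cirbp was below Rbm3 there in the other sections. Each UMI tags the 3′ end of a transcript, so these ratios are of captured molecules and need no length.

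**Figure D3:**
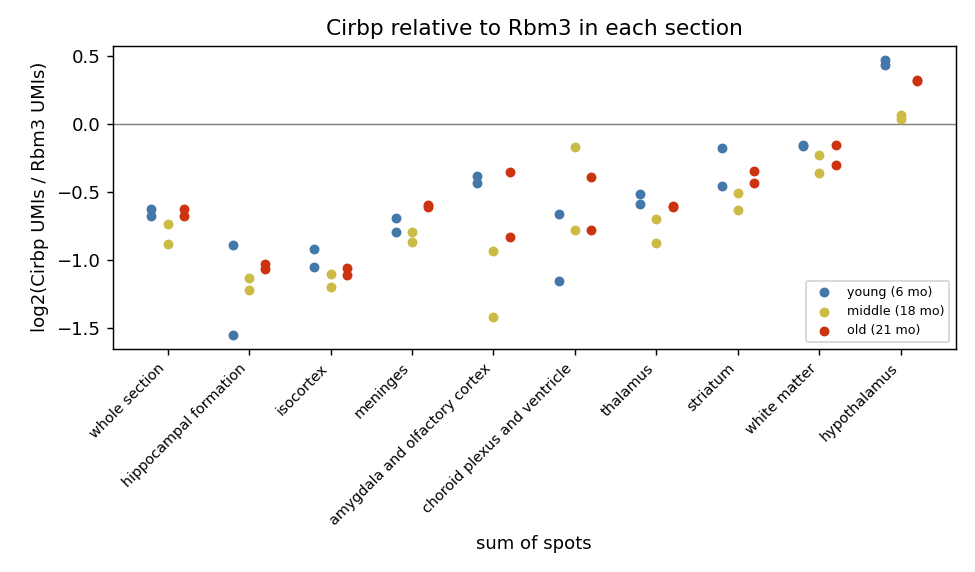
Log2 ratio of Cirbp to Rbm3 UMIs in whole sections and in each region, by section, coloured by age. Points above 0 hold more Cirbp than Rbm3 UMIs: all 6 hypothalamus values do and no value of another region does.

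Across regions, Rbm3 was higher in both middle and both old sections than in both young ones in 9 of 9 regions, and old overlapped middle in all 9. Cirbp was higher in old than in young without overlap in 8 of 9 regions, the striatum being the exception, and in middle than in young in 7 of 9, without striatum or amygdala and olfactory cortex. Its old sections lay above its middle ones in 4 of 9. The share of all genes that do so was not computed, so this count cannot be judged. The background was 10632 genes that had, in every region, at least 10 UMIs in at least 2 sections. Of these, 0.179% had both old sections above both young ones in 9 of 9 regions and 0.734% in at least 8. For middle against young the shares were 0.0188% in 9 of 9 and 0.658% in at least 7. The regions of a section come from the same mouse and library and are not independent.

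White matter, the spots whose leading genes included the myelin genes Mal and Mag, was the region in which the change of either gene was called. There Cirbp was at 55.6 CPM in young 1, 61.7 in young 2, 76.4 in middle 1, 87.3 in middle 2, 88.9 in old 1 and 90.3 in old 2. By CPM the ages did not overlap, with no share of all genes to set beside it. Cirbp rose by 0.53 from young to old (SE 0.11, edgeR adjusted p = 0.0467), and its middle minus young difference of 0.42 was not called (SE 0.11, edgeR adjusted p = 0.113). Rbm3 was at 62.1 in young 1, 68.6 in young 2, 98.0 in middle 1, 102.0 in middle 2, 109.2 in old 1 and 100.1 in old 2. Both young sections were lowest, and middle and old overlapped. Rbm3 rose by 0.60 to old (SE 0.11, edgeR adjusted p = 0.0241) and by 0.55 to middle (SE 0.11, edgeR adjusted p = 0.0485). In this region 0.701% of 13405 genes were called between old and young and 0.425% between middle and young.

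All 3 white matter calls were lost with slide as a block (adjusted p 0.296 for Cirbp in old, 0.0933 and 0.225 for Rbm3 in old and middle), with differences of 0.50, 0.64 and 0.59. The Cirbp call was lost under DESeq2 (0.161) and when any section but young 2 was left out. With coarser or finer clusters it was lost too (0.0852 and 0.0660), as was the Rbm3 call in middle (0.0503 and 0.0683). The Rbm3 call in old was lost without young 1, old 1 or old 2 (0.0624, 0.259 and 0.167), and that in middle without any middle or old section (0.0767 to 0.463).

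The white matter spots fell into 3 clusters, and Cirbp and Rbm3 were lowest in the 2 young sections in each. In the cluster whose leading genes included C4b, Apod and Trf, Cirbp was 49.0 and 60.8 in young against 73.7 to 100.7 in the 4 older sections, and Rbm3 56.8 and 62.2 against 88.8 to 103.4. The cluster led by Ccn2 and Cplx3, genes of the deepest cortical layer, besides myelin genes, had Rbm3 at 75.1 and 84.0 in young and 104.0 to 114.0 in the others. Marker RNAs of other cells also moved in white matter. The summed level of 6 microglial markers was 545 to 627 CPM in young, 769 to 803 in middle and 937 to 1143 in old. That of 4 neuronal markers was 1026 to 1209, 1399 to 1807 and 1322 to 1393, and that of 4 oligodendrocyte markers 30155 to 36934, 22663 to 28819 and 28623 to 29230. Sums of 6 astrocyte markers were 2066 to 2116, 2061 to 2282 and 2410 to 2974, and of 5 endothelial markers 699 to 754, 809 to 888 and 837 to 845. None of these markers was at 0 in all 6 sections, and their part in the result was not tested. In whole sections 3 of these 5 sums were above young in every middle and old section. The microglial sum was 267 to 293 in young, 319 to 335 in middle and 339 to 379 in old, the astrocyte sum 1347 to 1408, 1424 to 1477 and 1459 to 1542, and the endothelial sum 640 to 643, 696 to 713 and 705 to 720. Both old sections were above both young ones for 6 of 6 microglial, 3 of 6 astrocyte and 4 of 5 endothelial markers, and below them for 1 endothelial marker. Of 4 neuronal markers 1 was above and 1 below, and of 4 oligodendrocyte markers 0 were above and 0 below. Over all genes tested, 32.1% had both old sections above both young ones.

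In the other 8 regions none of the changes was called by the main test. Over them, old minus young differences ran from 0.27 to 0.63 for Cirbp and from 0.30 to 0.52 for Rbm3, and middle minus young differences from -0.11 to 0.74 and from 0.27 to 0.68. In the isocortex, Rbm3 was 117.7 and 117.2 CPM in young, 174.5 and 150.0 in middle and 171.2 and 154.2 in old. Its differences from young were 0.44 for old (SE 0.081, edgeR adjusted p = 0.0512) and 0.45 for middle (SE 0.081, adjusted p = 0.0511), just over the threshold, where 0.224% and 0.165% of genes were called. DESeq2 and the fit with slide as a block called both, and the shares of all genes these fits called in isocortex are not given here. Cirbp in isocortex was 56.9 and 61.9 in young, 76.1 and 69.8 in middle and 82.1 and 71.5 in old, with differences of 0.34 and 0.28 (edgeR adjusted p = 0.111 and 0.234).

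In the hypothalamus, Rbm3 went from 72.5 and 69.2 in young to 114.8 and 104.7 in middle and 112.2 and 100.1 in old. Its middle minus young difference was 0.61 (SE 0.11, edgeR adjusted p = 0.0692) and its old minus young difference 0.52 (SE 0.11, adjusted p = 0.311), with 0.0537% and 0.0307% of genes called. Cirbp there was 98.0 and 96.2 in young, 118.2 and 109.7 in middle and 139.9 and 125.6 in old. These 3 groups did not overlap, with no share of all genes to set beside it. Its differences from young were 0.20 for middle and 0.38 for old (edgeR adjusted p = 0.699 and 0.555), and 0.11 for middle without middle 1.

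The choroid plexus, which makes cerebrospinal fluid, had the highest point estimates for Cirbp and the lowest for Rbm3, over the 9 regions. Cirbp was 37.1 and 54.5 in young, 61.8 and 87.0 in middle and 72.3 and 65.3 in old, with differences from young of 0.63 for old (SE 0.21) and 0.74 for middle (SE 0.21), neither called (edgeR adjusted p = 0.693 and 0.717). These rest on 74 to 149 Cirbp UMIs per section, and were 0.40 for old without young 1 and 0.49 for middle without middle 2. Rbm3 differed there by 0.30 and 0.27, and 0.0761% of genes were called in each of the 2 contrasts.

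The amygdala and olfactory cortex was the single region where Cirbp was lower in middle than in young, by a difference of -0.11 (SE 0.16, edgeR adjusted p = 0.929). Cirbp was 55.0 and 65.3 in young, 53.5 and 57.3 in middle and 68.6 and 83.8 in old, and middle overlapped young. In the same spots Rbm3 was 74.3 and 85.1 in young, 143.0 and 109.7 in middle and 121.9 and 107.1 in old, with differences of 0.68 for middle and 0.49 for old (edgeR adjusted p = 0.154 and 0.601). The region had 32 to 112 spots per section and 0.00925% and 0.037% of genes called. With coarser or finer clusters, the Cirbp difference was 0.20 or 0.19, turning its sign.

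In the hippocampal formation, where 0% of genes were called in either contrast, old minus young differences were 0.46 for Cirbp and 0.37 for Rbm3, and middle minus young differences 0.41 and 0.44. The young 1 value of Cirbp there, 39.7, rests on 72 UMIs. Without young 2, which left young 1 as the only young section, the Cirbp differences were 0.74 and 0.69. Without young 1, which left only young 2, those of Rbm3 were 0.49 and 0.57. Thalamus gave 0.35 and 0.41 for Cirbp and Rbm3 in old and 0.28 and 0.52 in middle, with 0.0508% and 0.0363% of genes called. Striatum gave 0.27 and 0.34 in old and 0.18 and 0.43 in middle, with 0.153% and 0.0726% called. Without young 1, whose striatal Cirbp was 48.3 against 71.5 in young 2, the Cirbp differences in striatum were 0.02 and -0.06. Meninges gave 0.46 and 0.31 in old and 0.21 and 0.30 in middle, with 0.217% and 0.348% called.

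**Figure D4:**
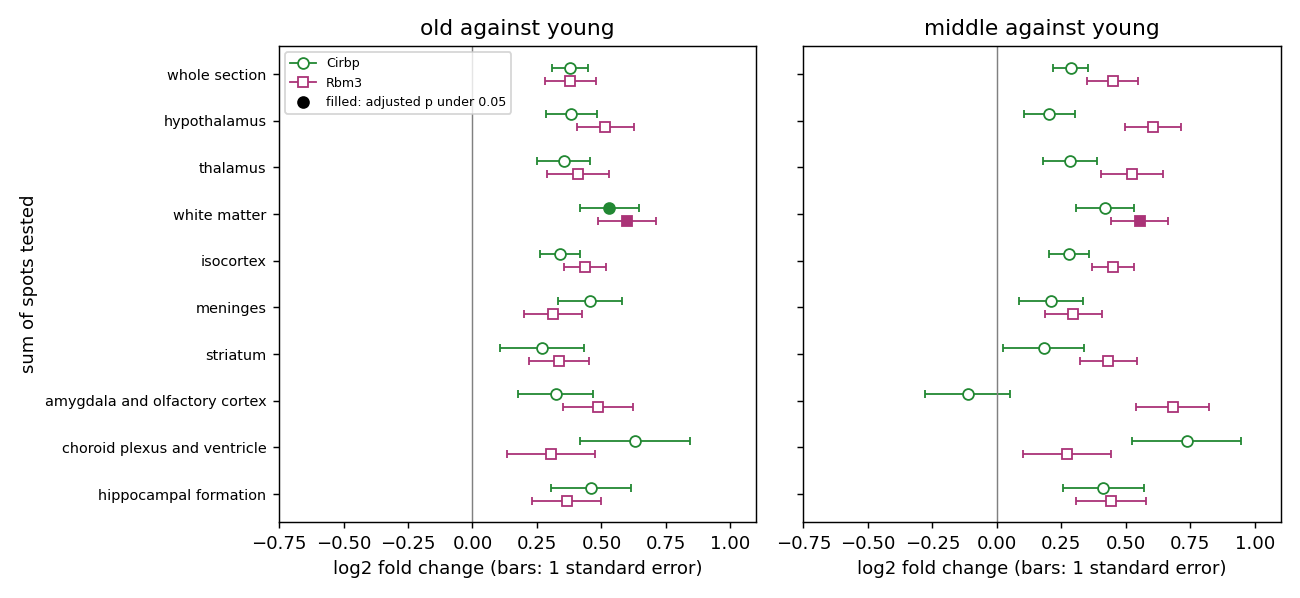
Log2 fold changes of Cirbp (circles) and Rbm3 (squares) for old against young (left) and middle against young (right), in whole sections and each region; bars are 1 standard error and filled symbols passed an edgeR adjusted p of 0.05. All values but Cirbp in middle amygdala and olfactory cortex lie above 0, and the filled symbols are all in white matter.

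The size of the age change was not shown to differ between regions. An interaction test compared the old minus young change in each region with that in all other spots of the same sections. For Cirbp the interaction was 0.18 in white matter (SE 0.12, edgeR adjusted p = 0.798) and ranged from -0.12 to 0.27 over the 9 regions. For Rbm3 it was 0.24 in white matter (SE 0.12, edgeR adjusted p = 0.675) and ranged from -0.09 to 0.24. None of the 18 interactions was called, and none had an unadjusted p under 0.05. The same tests called 0.0592% of genes for isocortex, 0% for hippocampal formation and hypothalamus, 0.0119% for thalamus, 0.0176% for striatum and 0.0412% for amygdala and olfactory cortex. They called 0.141% for white matter, 0.102% for choroid plexus and ventricle and 0.217% for meninges. By limma and by DESeq2, none of the 18 was called either.

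Between middle and old, no regional difference of either gene was called. For Rbm3 they ran from -0.20 to 0.05 over the 9 regions (SE 0.081 to 0.17), positive in 3, and for Cirbp from -0.11 to 0.44 (SE 0.077 to 0.20), positive in 8. The edgeR adjusted p was at least 0.889, and 1 of the 18 had an unadjusted p under 0.05, Cirbp in amygdala and olfactory cortex (0.44). DESeq2 called none. Genes called in this contrast made up 0.0232% in meninges, 0.0149% in white matter, 0.00925% in amygdala and olfactory cortex and 0.00767% in hypothalamus, and 0% in the other 5 regions.

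Spot by spot, both RNAs were widespread. A Cirbp UMI was found in 75.9% to 83.3% of the spots of a section and an Rbm3 UMI in 82.0% to 90.8%, and 65.9% to 77.3% held both. Because old spots were shallower, each spot was thinned to 5000 UMIs, which left out 57 young, 31 middle and 92 old spots below that depth. The share with Cirbp was then 26.4% and 28.0% in young, 32.7% and 32.5% in middle and 36.1% and 35.02% in old. That with Rbm3 was 36.7% and 36.8% in young, 50.3% and 46.2% in middle and 48.0% and 43.7% in old. White matter was sparsest before thinning, with Cirbp in 45.8% to 70.6% of spots and Rbm3 in 45.5% to 74.2%. No region lacked either RNA, so a share from diffused RNA could not be set apart. A spot covers several cells, and these shares are not shares of cells.

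Among gene lists from the same biology, calls were few. Of 15 related RNA-binding proteins with RNA recognition motifs, such as the hnRNPs, 0 were called in either direction in old or middle against young, with medians of -0.04 and -0.04 and 0 with an unadjusted p under 0.05, against 12.7% and 7.82% of all genes tested. DESeq2 called 0 of them as well. Hnrnph1, a splicing regulator, was 177.9 and 181.5 CPM in young and 175.8 and 172.9 in old, a difference of -0.09 (SE 0.052). Of 18 SR splicing factors and their kinases, 0 were called by edgeR or by DESeq2, and 3 in old and 2 in middle had an unadjusted p under 0.05, shares near those of all genes. Srsf5, an SR protein, was 152.2 and 171.8 in young, 179.0 and 206.2 in middle and 203.2 and 192.7 in old, with an old minus young difference of 0.24 (edgeR adjusted p = 0.270). Clk1, a kinase of SR proteins, differed by -0.21 (edgeR adjusted p = 0.274).

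Of 13 genes reported to act with RBM3 or CIRBP, 0 were called by edgeR or by DESeq2, with medians of -0.03 in old and -0.05 in middle, and 2 and 1 had an unadjusted p under 0.05, again near the shares of all genes. Ntrk2, the BDNF receptor reported upstream of Rbm3, was 250.96 and 267.9 in young and 265.5 and 264.1 in old, a fitted difference of -0.02 (SE 0.050). This sign comes with the TMM factors of the fit, and by CPM the old mean was the higher. Rtn3, a reticulon whose translation RBM3 is known to raise, was 869.3 and 864.7 in young and 856.6 and 872.5 in old, a difference of -0.06 (SE 0.054). For both, the ages overlapped. A median over all genes tested was -0.0023 in old and -0.0048 in middle.

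Circadian clock genes were also not called by edgeR, 0 of 19 in either contrast, although 8 in old and 7 in middle had an unadjusted p under 0.05, where 12.7% and 7.82% of all genes did. With no filter on low counts edgeR called 1 clock gene higher in each contrast, and without young 2 it called 1 in old. Clock was 37.0 and 40.2 in young, 36.9 and 33.9 in middle and 35.8 and 34.6 in old, a difference of -0.19 in old (edgeR adjusted p = 0.310). Per2 differed by -0.29 (edgeR adjusted p = 0.263), Per1 by 0.10 (0.754) and the clock output gene Dbp by 0.20 (0.306). DESeq2 called 1 clock gene, Bhlhe41, a repressor of CLOCK-driven transcription, higher in old (0.35) and middle (0.36), where the edgeR adjusted p was 0.106 and 0.136, a gene picked here after its values were seen. The time of day of tissue collection is not given in the labels used here.

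The heat shock genes, which a rise in temperature or misfolded protein induces through HSF1, were the list that held calls, and all were lower with age. Of 21, 5 fell in old against young (Hspa1a, Hspa1b, Hspb1, Dnajb1 and Hsph1) and 4 in middle against young (the same but Hsph1), with medians of -0.17 in both. Of all genes tested, 0.0736% and 0.0453% were called lower. Hspa1a, inducible Hsp70, was 53.7 and 56.6 CPM in young, 16.1 and 17.4 in middle and 18.6 and 15.6 in old, a fall by 1.74 on the log2 scale in old (SE 0.081, edgeR adjusted p = 0.000491). Hspa1b is nearly identical to Hspa1a, and reads may be split between them. Hsph1, the Hsp110 co-chaperone, was 289.7 and 306.1 in young, 235.8 and 251.02 in middle and 236.6 and 237.6 in old, and fell by 0.38 (SE 0.051, edgeR adjusted p = 0.0480). DESeq2 called 8 and 5 of the list lower, and 81 and 34 of all 17673 genes tested. The counts of edgeR calls fell to 2 and 2 with slide as a block, and to 2 and 1 without middle 1 or without middle 2.

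**Figure D5:**
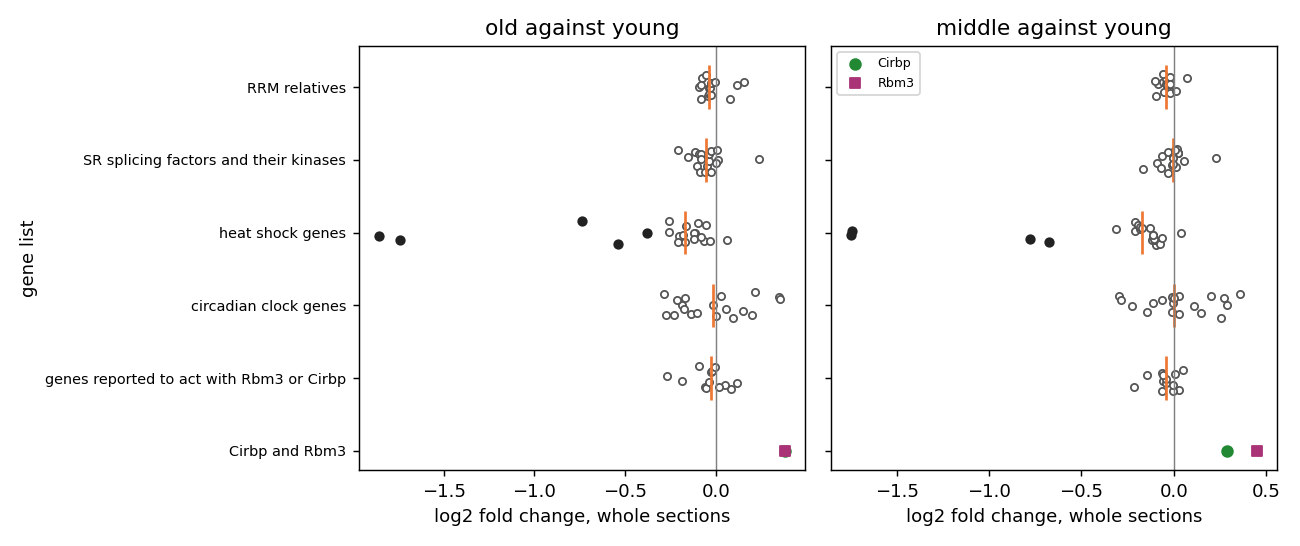
Log2 fold changes in whole sections for each gene of 5 lists and for Cirbp and Rbm3, old against young (left) and middle against young (right). Circles are genes, filled where the edgeR adjusted p was under 0.05, and orange lines are list medians; vertical spread within a list has no meaning. The filled circles are heat shock genes below 0, and Cirbp and Rbm3 lie at 0.29 to 0.45.

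Over the 54 sums of 9 regions in 6 sections, the log2 levels of Cirbp and Rbm3 had a Pearson correlation of 0.20. This placed Rbm3 1415th among 3511 genes ranked by likeness to Cirbp, and Cirbp 1750th by likeness to Rbm3. The 5 genes most like Cirbp were Vps28 (r = 0.78), Rtl8a, Vegfb, Nap1l5 and Tmem130 (0.78 each). The 5 most like Rbm3 were AC149090.1 (r = 0.72), Suds3 (0.71), Tmem160 (0.67), Ndufv1 (0.66) and Asna1 (0.66). The sums of a section share its library, mouse and depth, and these correlations are a description.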

How the data were processed

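UMI counts per gene and spot were deposited as matrices that the authors made with spaceranger 1.3.1, per the file headers; the build is mm10, per the submitters' processing notes. The other deposited columns hold barcodes, gene identifiers and symbols. Spots under 500 UMIs were left out (16741 of 16743 kept). Counts were summed per section and per region. Regions were Leiden clusters (scanpy 1.11.5, resolution 0.8, 2000 variable genes without the members) named where 50 leading genes held at least 3 markers of a region, at least 1 of them in the first 10, and at least 2 times as many as of any other region. Old, middle and young sums were compared with edgeR 4.0.16 (TMM, quasi-likelihood, Benjamini-Hochberg over all genes tested, threshold 0.05), tested on simulated data first; DESeq2 1.42.0 and limma 3.58.1 were alternatives. Levels between regions were compared as log2(CPM + 1), and likeness was ranked over genes with a mean of at least 50 CPM. Besides Cirbp and Rbm3, list genes are named where called (at most 5 per list and contrast), with further genes chosen by name. The members and lists were chosen with earlier results of these data known. Tissue images were not used here.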

Additional observations from a re-analysis of the deposited data

How the results depend on the processing

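Of 536 alternative values of Cirbp and Rbm3 against young, in whole sections and regions, 524 were positive. The limits are 2 sections per age, young sections on 1 slide only, and as few as 69 Cirbp UMIs in a region of 1 section. Genes called in whole sections numbered 29 (old) and 12 (middle) in the main fit, 194 and 70 with DESeq2, 113 and 58 with no filter, and 7 and 3 with slide as a block. In white matter they were 94 and 57, with 352 and 675 with no filter. None of 180 alternative interactions was called. The causes of the changes below were not tested.

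With DESeq2, Cirbp (0.38) and Rbm3 (0.38) in old whole sections, Rbm3 in middle whole sections (0.45) and Rbm3 in isocortex (0.43 old, 0.45 middle) were called, and Cirbp in old white matter (0.53) was not. Heat shock calls in old numbered 8. With no filter on low counts, Cirbp was called in old whole sections (0.37), in isocortex (0.33 old, 0.28 middle) and in middle white matter (0.42). Rbm3 was then called in old isocortex (0.43) and hypothalamus (0.51). In middle it was called in isocortex (0.45), thalamus (0.52), hypothalamus (0.61), striatum (0.43) and amygdala (0.67). Dropping the filter also raised the number of all genes called in whole sections and white matter. For the regions, the shares of all genes called by these alternative fits are not given here, so these calls cannot be weighed. With slide as a block, isocortex was called for Cirbp in old (0.42) and Rbm3 in old (0.54) and middle (0.55). White matter was not called, at 0.50 for Cirbp in old and 0.64 and 0.59 for Rbm3 in old and middle. Heat shock calls numbered 2 in old and 2 in middle, and 2 in old with only the 2 groups compared. With RLE factors, Rbm3 in middle isocortex was called (0.45).

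At Leiden resolutions of 0.5 and 1.2, Rbm3 in middle isocortex was called (0.45 and 0.45), and at 1.2 also in old (0.44). Cirbp in old white matter (0.49 and 0.52) and Rbm3 in middle white matter (0.57 and 0.55) were not called. Cirbp in middle amygdala and olfactory cortex turned to 0.20 and 0.19. Level differences that turned sign were Cirbp striatum minus amygdala (-0.038 and -0.022) and Rbm3 meninges minus amygdala (-0.032 and -0.064). At 0.5 so did Cirbp amygdala minus choroid plexus (-0.16) and Rbm3 thalamus minus hippocampal formation (0.029). With TMM factors over regions, Rbm3 hypothalamus minus white matter was -0.0092. Rbm3 interactions turned to -0.010 (isocortex) and 0.019 (choroid plexus) at 0.5, and in hippocampal formation to -0.016 with limma and -0.012 with DESeq2.

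Same-numbered sections deviated together with correlations of 0.02, 0.13 and 0.24, so the numbers were not taken to pair samples. With the replicate block, Rbm3 was called in isocortex (0.43 old, 0.44 middle) and middle hypothalamus (0.60). In white matter Cirbp in old (0.53) and Rbm3 in old (0.60) and middle (0.55) were not called. Heat shock calls in old numbered 3, and all genes called in whole sections 21 (old) and 10 (middle).

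Leaving out 1 section at a time changed a call or a sign for the following. The Cirbp slope ran from 0.022 to 0.027. For old against young, Cirbp ran from 0.34 to 0.74 in hippocampal formation and 0.47 to 0.59 in white matter. Rbm3 ran from 0.36 to 0.50 in isocortex, 0.23 to 0.49 in hippocampal formation and 0.52 to 0.67 in white matter. For middle against young, Cirbp ran from 0.29 to 0.69 in hippocampal formation and -0.063 to 0.39 in striatum. Rbm3 ran from 0.31 to 0.58 in isocortex, 0.31 to 0.57 in hippocampal formation, 0.50 to 0.70 in hypothalamus, 0.48 to 0.86 in amygdala and 0.50 to 0.61 in white matter. Heat shock calls ran from 2 to 4 in old and 1 to 4 in middle. Uncalled values that moved by over 1.5 times, besides those in the report, were Cirbp in old striatum (0.077 without old 1, 0.48 without young 2, 0.45 without old 2) and old amygdala (0.16 without old 2). In middle they were Cirbp in striatum (0.090 without middle 1, 0.28 without middle 2, 0.39 without young 2), amygdala (-0.022 without young 2, -0.053 without middle 1) and meninges (0.13 without middle 1). For Rbm3 they were old striatum (0.19 without old 1), old hippocampal formation (0.23 without young 2), old choroid plexus (0.19 without old 2) and middle meninges (0.18 without middle 1).

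For old against middle, Rbm3 ran from -0.21 to 0.078 in whole sections, -0.14 to 0.13 in isocortex, -0.19 to 0.018 in hippocampal formation, -0.27 to 0.053 in thalamus and -0.19 to 0.015 in hypothalamus. It ran from -0.24 to 0.045 in striatum, -0.37 to 0.0094 in amygdala, -0.030 to 0.12 in white matter, -0.086 to 0.15 in choroid plexus and -0.091 to 0.13 in meninges. Cirbp ran from -0.044 to 0.15 in isocortex, -0.082 to 0.18 in hippocampal formation, -0.037 to 0.17 in thalamus, -0.10 to 0.27 in striatum and -0.29 to 0.14 in choroid plexus. Cirbp interactions ran from -0.018 to 0.33 in hippocampal formation, -0.12 to 0.012 in thalamus, -0.045 to 0.087 in hypothalamus, -0.34 to 0.056 in striatum and -0.30 to 0.15 in amygdala. Rbm3 interactions ran from -0.14 to 0.11 in hippocampal formation, -0.0065 to 0.025 in thalamus, -0.14 to 0.020 in striatum and -0.28 to 0.15 in choroid plexus.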
